A study of Mus musculus with 8 samples.

Results

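The genes described here encode the protein complexes of the mitochondrial respiratory chain. They were taken by gene symbol, as the probe sets with 1 symbol that starts with Nduf, Uqcr, Atp5, Cox4, Cox5, Cox6, Cox7 or Cox8 or is Sdha, Sdhb, Sdhc, Sdhd or Cycs. This gave 91 of the 18193 genes on the arrays, 85 of them read on array type A and 6 on type B. By name they fall into 36 genes of complex I, 8 assembly factors of complex I, 4 of complex II, 8 of complex III, 17 of complex IV, 17 of complex V and cytochrome c. The series asks which genes Egr3, a zinc-finger transcription factor needed for muscle spindles to form, regulates in primary myotubes. Myotubes are the multinucleated cells formed when muscle precursors fuse in culture.

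The 4 RNAs, each hybridised to 1 array of each type, were of these kinds. One is labelled as carrying truncated Egr3 and one as the wildtype, and both of these are also labelled with a growth treatment. RNA275 is labelled with acclimatization alone and RNA276 with no treatment, so neither belongs to a group and their values are set beside those of the labelled RNAs as a description only. How the truncation was made or introduced, and whether wildtype means the cells or the Egr3 protein, is not stated in the labels. No strain, age or number of animals or cultures is given in them either.

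The respiratory chain passes electrons from NADH, through complex I, and from succinate, through complex II, to ubiquinone, then through complex III and cytochrome c to complex IV, where oxygen is reduced. Complexes I, III and IV pump protons across the inner mitochondrial membrane, and complex V, the ATP synthase, uses that gradient to make ATP. Most subunits are encoded in the nucleus, as are all the genes here, and muscle carries isoforms of some complex IV subunits that other tissues lack or hold at low levels. Nuclear respiratory factor 1, Ets factors of the GABP type and estrogen-related receptors are known to bind promoters of many of these genes.

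Promoter letters of these genes are shown first, because the study is about an Egr factor and the members share well-known regulators. In the RefSeq table of promoters (GRCm38.p6, 250 bases before to 50 after each gene's start), 75 of the 91 members had an entry. Letters of an Egr site, GCGNGGGCG, searched on both strands and with overlapping matches counted, were found in 5 of the 75 (6.67%), against 6.27% of all 27025 genes in the table. The 5 were Atp5g2, Atp5j, Ndufab1, Ndufaf2 and Ndufaf7. The 4 whose match begins before the start of the gene are printed here 5′ to 3′ on the gene's strand, with the matched letters in capitals. In Atp5g2 the first capitals are an NRF1 match and the second the Egr match, and in Ndufab1 2 Egr matches overlap.
Atp5g2 (chr15:102671048-102671109, minus strand): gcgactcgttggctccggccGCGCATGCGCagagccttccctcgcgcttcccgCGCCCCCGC
Ndufab1 (chr7:122101899-122101953, minus strand): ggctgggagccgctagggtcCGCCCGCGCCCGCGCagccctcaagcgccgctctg
Ndufaf2 (chr13:108158619-108158647, minus strand): cgggcagtgggcggagcttaGCGTGGGCG
Ndufaf7 (chr17:78937076-78937124, plus strand): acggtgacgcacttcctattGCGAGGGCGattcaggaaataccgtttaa

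Letters of an NRF1 site (GCGCA, then any base, then GCGC) were in 17 of the 75 members with an entry (22.7%), against 5.19% of all genes in the table. Ets letters, CCGGAAG, were in 19 (25.3%, against 9.93%), and estrogen-related receptor letters, TCAAGGTCA, in 2 (2.67%, against 0.466%), which were Atp5g3 and Sdhd. Base composition was not matched between the members and all genes, and a match of letters is not a measured site. Sdha, the flavoprotein of complex II, had 3 NRF1 matches, as did Ndufb4 of complex I, and Cox6a1 of complex IV had 2. Those of Sdha and Cox6a1, genes measured in both labelled RNAs, are printed here in capitals as examples.
Sdha (chr13:74350241-74350358, minus strand): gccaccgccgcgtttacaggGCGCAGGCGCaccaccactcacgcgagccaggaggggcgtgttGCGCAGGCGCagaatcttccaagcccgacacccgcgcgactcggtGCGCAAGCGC
Cox6a1 (chr5:115349046-115349140, minus strand): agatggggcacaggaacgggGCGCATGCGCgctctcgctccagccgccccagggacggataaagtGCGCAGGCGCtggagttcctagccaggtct

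Across all probe sets, signals of the truncated-Egr3 RNA followed those of the wildtype RNA with a Spearman rho of 0.973 on array type A and of 0.947 on array type B. Of 17 myotube markers, all were above the floor in at least 1 of these 2 RNAs, with Myh2 and Myh7 close to it, and their summed signal was 30944 in the truncated-Egr3 RNA and 34884 in the wildtype RNA, with 30297 in RNA275 and 32279 in RNA276. Single markers differed more than this sum, such as Ttn, with 1627 in the truncated-Egr3 RNA and 1850 in the wildtype RNA, and 704 in RNA275 and 354 in RNA276. Macrophage markers were mostly undetected, with 7 of 9 under the floor in each labelled RNA, and their summed signal was between 399 and 442 in the 4 RNAs. All 3 adipocyte markers, 3 of 4 endothelial markers, 1 of 2 Schwann cell markers, 2 of 4 myoblast markers and 2 of 6 fibroblast markers were below it too. The summed fibroblast signal, mostly Col1a1 and Col3a1, was 7462 in the truncated-Egr3 RNA and 8029 in the wildtype RNA, with 6943 in RNA275 and 8382 in RNA276, and 1 of these markers, Dcn, was 2-fold apart, at 317 in the truncated-Egr3 RNA, against 157 in the wildtype RNA. The summed signal of the myoblast markers was 1503, against 1803, with 1390 and 1966. Their part in the values below was not tested. In cultures such as these, fewer cells of a type and less RNA per cell cannot be told apart.

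**Figure D1:**
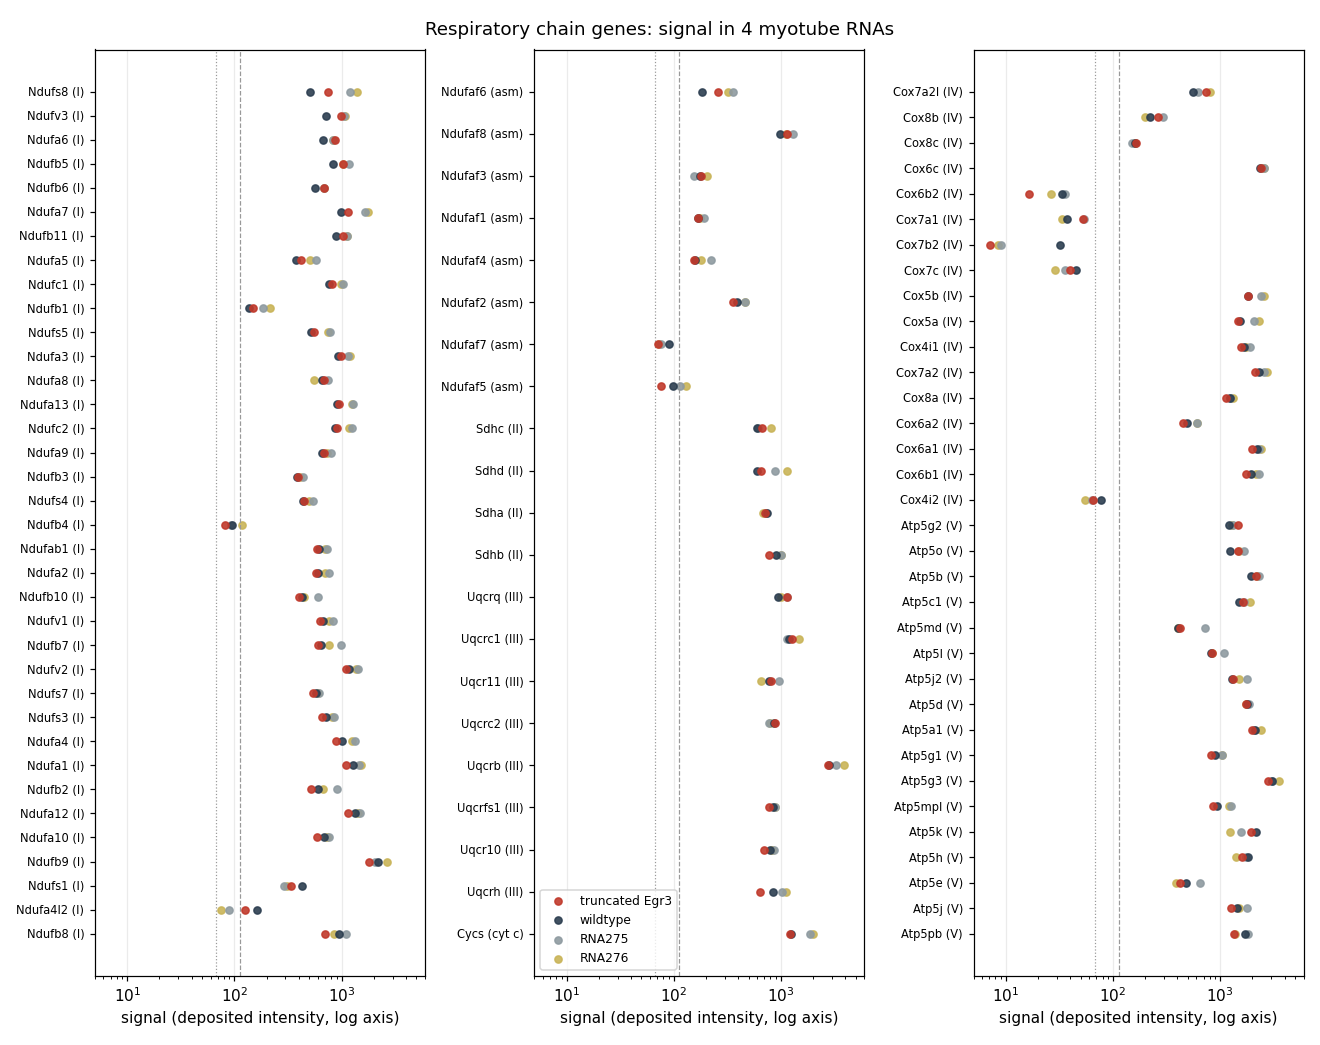
Deposited signal (log axis) of the 91 genes in the truncated-Egr3, wildtype, RNA275 and RNA276 RNAs, 1 point per RNA, in order of the log2 difference of truncated Egr3 minus wildtype within each complex (asm, assembly factors of complex I; cyt c, cytochrome c). The dotted and dashed lines are the floors of array types A (67.6) and B (112.6); Cox6b2, Cox7a1, Cox7b2, Cox7c and Ndufb4 lie below them in both labelled RNAs.

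Respiratory chain genes differed little between the truncated-Egr3 and wildtype RNAs. Of the 91 genes, 86 were measured, that is, above the signal floor (67.6 on type A, 112.6 on type B) in at least 1 of these 2 RNAs. None was 2-fold higher and none 2-fold lower in the truncated-Egr3 RNA, where 0.534% of the 10307 measured genes were 2-fold higher, 1.13% were 2-fold lower and 1.66% were 2-fold apart in all. None was 1.5-fold apart either, where 9.28% of all measured genes were. The log2 differences ran from -0.44 (Ndufb8) to 0.54 (Ndufs8). Their median was -0.04, with 39 genes above 0 and 47 below, beside a median of 0.00 over all measured genes (0.000651 unrounded). With arrays scaled to equal medians, the respiratory chain genes had a median of 0.03 and all measured genes one of 0.09, so the sign of medians this close to 0 depends on the scaling. The 17 myotube markers had a median of -0.16.

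Each label has a single RNA, so no replicate check and no p-value can be given, and each difference describes these 2 RNAs. Technical error was taken from the 100 probe sets that both array types carry, none of them of a respiratory chain gene, and gave an SD of 0.174 for a single log2 difference. The mean difference of these probe sets, type A minus type B, was -0.14, further from 0 than the median of the respiratory chain genes. Probe sets of the same respiratory chain gene differed more than this error. Over the 66 other measured probe sets, the log2 difference minus that of the probe set used had an SD of 0.385. The SD between array types, from which 0.174 was taken, was 0.246. Of the 66, 40 had the sign of the probe set used. The cut of 2 technical SDs does not cover this spread between probe sets. Differences beyond 2 technical SDs (0.348) numbered 9 of the 86 genes, or 10.5%, against 27.3% of all measured genes. The respiratory chain genes are bright, with 72 of the 86 above the 75th percentile of signal among measured genes (a signal of 421). Of the 2577 genes above it, called bright genes below, 2.17% were 2-fold apart, 7.99% were 1.5-fold apart and 23.4% were beyond 2 technical SDs. The SD of the log2 differences over genes was 0.204 for the respiratory chain, 0.374 for all measured genes and 0.401 for bright genes. The respiratory chain genes thus spread less between these 2 RNAs than measured genes at large, a description of 1 pair of RNAs.

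**Figure D2:**
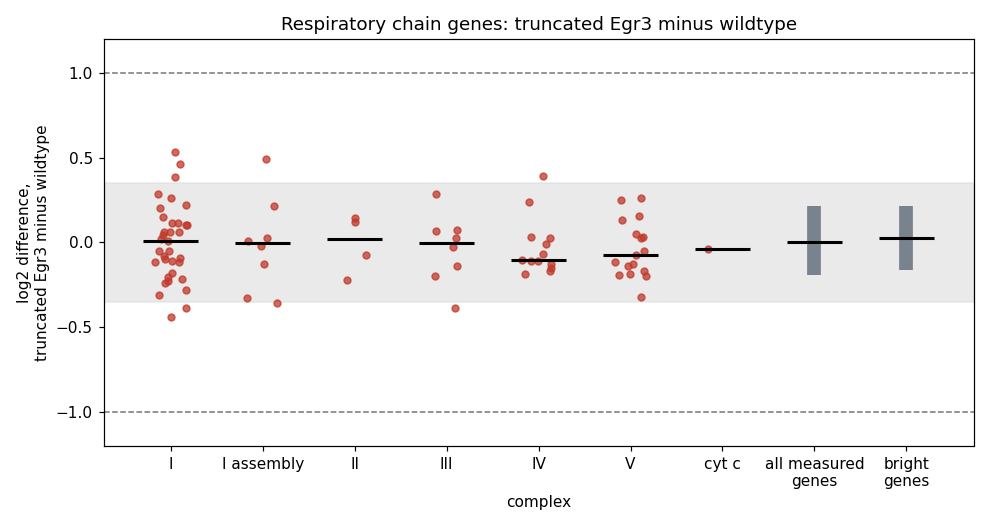
Log2 difference, truncated Egr3 minus wildtype, of each measured respiratory chain gene by complex (points) with the median (black line), beside the median and interquartile range (bar) of all measured genes and of bright genes. The grey band is 2 technical SDs (0.348) and the dashed lines are 2-fold; 9 of the 86 points lie outside the band and none beyond the lines.

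Complex I is the entry point for electrons of NADH and has the most subunits. Its 35 measured genes had a median log2 difference of 0.01, with 18 above 0 and 17 below. The core subunits hold the flavin and the iron-sulphur clusters or the ubiquinone site, and 5 of the 6 measured here were below 0 (median -0.11). Of the 29 other genes placed in complex I by name, Ndufa4 and Ndufa4l2 among them, 12 were below 0 (median 0.04). Ndufs1, the largest of the core subunits read here and the carrier of several clusters, read 341 in the truncated-Egr3 RNA, against 423 in the wildtype RNA, a log2 difference of -0.31, and 291 in RNA275 and 308 in RNA276. By the probe set used for each gene, it was the 1 core subunit that read lower in RNA275 and RNA276 than in both labelled RNAs.

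Ndufs3, a core subunit near the ubiquinone site, read 655 in the truncated-Egr3 RNA, against 710 in the wildtype RNA, with 855 in RNA275 and 809 in RNA276. Ndufs7, which carries the last cluster before ubiquinone, read 538, against 582, with 620 and 605 in the same order. Ndufv1, which binds NADH and the flavin, read 632 in the truncated-Egr3 RNA, against 674 in the wildtype RNA, with 837 in RNA275 and 761 in RNA276. By the probe sets used, these 3 were lowest in the truncated-Egr3 RNA and highest in RNA275, and their log2 differences of -0.12, -0.11 and -0.09 were under 1 technical SD. The other Ndufv1 probe sets read lower in RNA275 and RNA276 than in both labelled RNAs. One had 484 in the truncated-Egr3 RNA and 507 in the wildtype RNA, with 441 in RNA275 and 367 in RNA276. The other had 492 and 457 (0.11), with 456 and 401. Ndufv2, the partner of Ndufv1, read 1095 in the truncated-Egr3 RNA, against 1181 in the wildtype RNA, with 1422 and 1358 in RNA275 and RNA276. Its log2 difference was -0.11 by this probe set, and its other 2 probe sets had opposite signs, one with 529 in the truncated-Egr3 RNA against 462 in the wildtype RNA, the other with 698 against 839.

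Ndufs8, an iron-sulphur subunit of the core, had the highest log2 difference of all 86 genes. Its brightest probe set read 740 in the truncated-Egr3 RNA, against 511 in the wildtype RNA, with 1199 in RNA275 and 1409 in RNA276. The 5 other measured Ndufs8 probe sets all had log2 differences below 0, from -0.50 to -0.01. One of them read 832 in the truncated-Egr3 RNA, against 916 in the wildtype RNA (-0.14), above the probe set used in both. It read 992 in RNA275 and 725 in RNA276, below the probe set used. The probe set used was thus the brightest by its mean over all RNAs only through RNA275 and RNA276. With the median over its probe sets in place of the brightest, Ndufs8 had a log2 difference of -0.04, so its place at the top rests on 1 probe set.

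Among the other genes placed in complex I by name, Ndufv3 and Ndufa6 were beyond 2 technical SDs upwards, and Ndufb8 and Ndufa4l2 downwards. Ndufv3, a small subunit next to the flavin site, read 990 in the truncated-Egr3 RNA, against 720 in the wildtype RNA (log2 difference 0.46), with 1059 in RNA275 and 1076 in RNA276. Ndufa6, of the arm in the matrix, read 876, against 671 (0.38), with 838 in both RNA275 and RNA276. In each of these genes the wildtype RNA was the lowest of the 4 and the other 3 lay close together.

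Ndufb8, a subunit of the membrane arm, read 701 in the truncated-Egr3 RNA, against 948 in the wildtype RNA (log2 difference -0.44), with 1101 in RNA275 and 843 in RNA276. Ndufa4l2, a paralog of Ndufa4 known as a target of the hypoxia factor HIF-1, read 124 in the truncated-Egr3 RNA, against 163 in the wildtype RNA (-0.39), with 89.7 in RNA275 and 74.7 in RNA276, below the floor of its array type. Ndufa4 itself, placed here by its name although it is now known as a subunit of complex IV, read 886, against 1005 (-0.18), with 1332 and 1258. Both read lower in the truncated-Egr3 RNA than in the wildtype RNA, while Ndufa4l2 read higher and Ndufa4 lower in the labelled RNAs than in RNA275 and RNA276. Ndufv3, Ndufa6, Ndufb8 and Ndufa4l2 had no other measured probe set, and under the higher floor Ndufa4l2 had a log2 difference of -0.06.

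The 25 other measured genes placed in complex I by name, besides the core and these 4, had log2 differences from -0.28 to 0.29, all within 2 technical SDs. The lowest was Ndufb9, of the membrane arm, with 1788 in the truncated-Egr3 RNA, against 2172 in the wildtype RNA, and 2034 in RNA275 and 2643 in RNA276. The highest was Ndufb5, also of the membrane arm, with 1027 in the truncated-Egr3 RNA, against 841 in the wildtype RNA (0.29), and 1183 in RNA275 and 1030 in RNA276. Its other measured probe set had the opposite sign, with 448 in the truncated-Egr3 RNA, against 493 in the wildtype RNA (-0.14). Ndufab1, the acyl carrier protein of complex I whose promoter letters are printed above, read 593 in the truncated-Egr3 RNA, against 613 in the wildtype RNA (-0.05), with 730 in RNA275 and 699 in RNA276. Ndufb4 was below the floor of type B in both labelled RNAs, at 81.9 in the truncated-Egr3 RNA and 94.5 in the wildtype RNA.

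The 8 assembly factors, which help to build complex I and are not part of the finished enzyme, had a median log2 difference of -0.01, with 4 above and 4 below 0. Ndufaf6 read 258 in the truncated-Egr3 RNA, against 183 in the wildtype RNA (0.49), with 357 in RNA275 and 319 in RNA276. Ndufaf8 read 1132, against 976 (0.21), and Ndufaf3 181, against 177 (0.03). At the lower end, Ndufaf5 read 76.7 in the truncated-Egr3 RNA, against 98.3 in the wildtype RNA (-0.36), Ndufaf7 72.0, against 90.2 (-0.33), and Ndufaf2 357, against 390 (-0.13). Ndufaf5 and Ndufaf7 are close to the floor, where small differences of signal are least sure.

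Complex II, succinate dehydrogenase, also works in the tricarboxylic acid cycle. Its 4 genes had a median log2 difference of 0.02 and none was beyond 2 technical SDs. Sdha, the flavoprotein, read 705 in the truncated-Egr3 RNA, against 742 in the wildtype RNA (-0.07), with 728 in RNA275 and 685 in RNA276. Sdhb, the iron-sulphur subunit, read 775, against 904 (-0.22), with 1004 and 996. By the probe sets used, the membrane anchors had the other sign. This split was not kept by other probe sets, at 0.23 and 0.09 for Sdha and -0.06 for Sdhc. That of Sdhd kept its sign, at 0.03. Sdhc read 661 in the truncated-Egr3 RNA, against 598 in the wildtype RNA (0.14), with 614 in RNA275 and 815 in RNA276, and Sdhd 657, against 604 (0.12), with 875 and 1131. Over the 4 RNAs Sdha was nearly level by the probe set used, and Sdhd had one of the widest ranges of the respiratory chain, 0.90 in log2. Another Sdha probe set read 364 in the truncated-Egr3 RNA and 310 in the wildtype RNA, with 385 in RNA275 and 403 in RNA276. One on type B read lower in RNA275 and RNA276 (173 and 163, with 122 and 126 in the same order).

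Complex III passes electrons from ubiquinol to cytochrome c. Its 8 genes had a median log2 difference of 0.00 (-0.0016 unrounded), with 4 above and 4 below 0. Uqcrfs1, the Rieske iron-sulphur protein, read 773 in the truncated-Egr3 RNA, against 851 in the wildtype RNA (-0.14), with 875 in RNA275 and 880 in RNA276. The core proteins Uqcrc1 and Uqcrc2, which face the matrix, had log2 differences of 0.08 and 0.02, with 1265 and 873 in the truncated-Egr3 RNA, against 1200 and 859 in the wildtype RNA. The highest were Uqcrq (1152, against 944, or 0.29), Uqcrc1 and Uqcr11 (806, against 768, or 0.07), and all are within 2 technical SDs.

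Uqcrh, the hinge protein that holds cytochrome c, was the 1 member of complex III beyond 2 technical SDs. Its type A probe set read 640 in the truncated-Egr3 RNA, against 838 in the wildtype RNA (-0.39), with 1022 in RNA275 and 1120 in RNA276. The probe set on type B went the opposite way, with 5203 in the truncated-Egr3 RNA, against 4232 in the wildtype RNA (0.30), and 5922 and 5775 in RNA275 and RNA276. Both probe sets placed the labelled RNAs below RNA275 and RNA276, while the order of the 2 labelled RNAs turned over. Uqcr10 read 696, against 799 (-0.20), and its other 2 probe sets also had lower signal in the truncated-Egr3 RNA, at -0.55 and -0.24.

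Cytochrome c, the soluble carrier between complexes III and IV encoded by Cycs, read 1221 in the truncated-Egr3 RNA, against 1255 in the wildtype RNA, with 1879 in RNA275 and 1984 in RNA276. The log2 difference of the labelled RNAs was -0.04, and by its other 2 measured probe sets -0.27 and -0.39. Those probe sets read 909 and 310 in the truncated-Egr3 RNA, against 1094 and 408 in the wildtype RNA, with 1244 and 551 in RNA275 and 1478 and 552 in RNA276. By all 3 probe sets the labelled RNAs lay below RNA275 and RNA276.

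Complex IV, cytochrome c oxidase, has catalytic subunits encoded in the mitochondrion and not read here, and nuclear subunits around them that exist in tissue isoforms. Its 13 measured genes had a median log2 difference of -0.10, with 9 below 0 and 4 above, against a percentage below 0 of 49.9% over all measured genes. All but Cox7a2l were within 2 technical SDs. The subunits found in most tissues were close together. Cox4i1 read 1554 in the truncated-Egr3 RNA, against 1667 in the wildtype RNA (-0.10), Cox5a 1469, against 1543 (-0.07), and Cox5b 1801, against 1812 (-0.01). Cox5a and Cox5b read 2052 and 2404 in RNA275 and 2307 and 2550 in RNA276, above both labelled RNAs.

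The ubiquitous isoforms Cox6a1, Cox6b1, Cox7a2 and Cox8a had log2 differences of -0.15, -0.17, -0.11 and -0.11. Cox6b1 read 1731 in the truncated-Egr3 RNA, against 1946 in the wildtype RNA, and Cox6a1, whose promoter holds the NRF1 letters shown above, 1996, against 2218. All 4 were lowest in the truncated-Egr3 RNA and higher in RNA275 and RNA276 than in the wildtype RNA. The isoforms of heart and skeletal muscle were Cox6a2, Cox7a1 and Cox8b. Cox6a2 read 451 in the truncated-Egr3 RNA, against 491 in the wildtype RNA (-0.12), with 613 in RNA275 and 611 in RNA276, and a type B probe set gave the opposite sign, 532 against 390 (0.45). Cox8b read 262 in the truncated-Egr3 RNA, against 222 in the wildtype RNA (0.24), with 294 in RNA275 and 197 in RNA276. Cox7a1 was below the floor in all 4 RNAs, at 52.0 and 37.3 in the truncated-Egr3 and wildtype RNAs and 53.3 and 33.1 in RNA275 and RNA276. Both measured muscle isoforms were within 2 technical SDs. The difference of Cox8b was 0.35 higher than that of its partner Cox8a, while Cox6a2 and Cox6a1 were 0.03 apart.

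Cox7a2l, which takes part in joining respiratory complexes into supercomplexes, was the highest of complex IV. It read 732 in the truncated-Egr3 RNA, against 559 in the wildtype RNA (0.39), with 624 in RNA275 and 811 in RNA276, and its other 2 probe sets had the same sign, at 0.16 and 0.22. Cox4i2, an isoform of lung induced by low oxygen, read 64.8 in the truncated-Egr3 RNA, against 76.8 in the wildtype RNA, so its log2 difference is -0.19 or lower, with the truncated-Egr3 array at the floor. Cox6b2 and Cox8c are isoforms known from testis. Cox6b2 was below the floor in all 4 RNAs, and Cox8c read 166 in the truncated-Egr3 RNA, against 162 in the wildtype RNA (0.03).

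A second Cox8c probe set, on type B, read 103 in the truncated-Egr3 RNA, against 324 in the wildtype RNA, with 544 in RNA275 and 425 in RNA276. With the truncated-Egr3 array at the floor, its log2 difference was -1.53 or lower. A second Cox6c probe set read 745 in the truncated-Egr3 RNA, against 300.0 in the wildtype RNA (1.31), while the brightest read 2417, against 2371 (0.03). These were the only 2 of 66 other measured probe sets at 2-fold, and in neither gene did the probe set used show it. The Cox8c probe set on type B is the one with the higher signal, and the other was used because type A was read first. Cox7c, a subunit of most tissues, read 39.7 in the truncated-Egr3 RNA and 45.0 in the wildtype RNA by the brighter of its 2 probe sets, below the floor. Probe sets with several symbols were not analysed here.

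**Figure D3:**
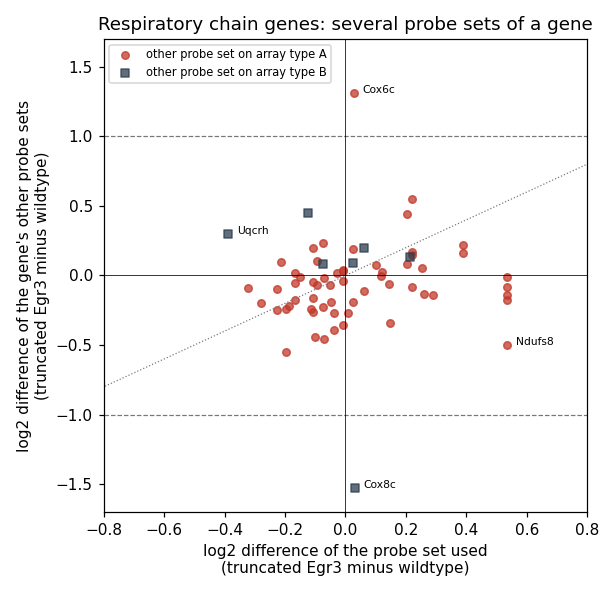
Log2 difference, truncated Egr3 minus wildtype, of the probe set used for a gene (horizontal axis) and of its other measured probe sets (vertical axis), as circles for array type A and squares for type B; the dotted line is equality and the dashed lines 2-fold. The 66 other probe sets belong to 44 genes, 40 of them share the sign of the one used, and the labelled Ndufs8, Uqcrh, Cox6c and Cox8c lie far from the dotted line.

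Complex V, the ATP synthase, has a catalytic F1 head, a ring of c subunits in the membrane and a stalk that joins them. Its 17 genes had a median log2 difference of -0.08, with 10 below 0 and 7 above, where 49.9% of all measured genes were below 0. None was beyond 2 technical SDs. In the head, Atp5a1 (alpha) read 1987 in the truncated-Egr3 RNA, against 2095 in the wildtype RNA (-0.08), and Atp5b (beta, which holds the catalytic sites) 2183, against 1957 (0.16). The 5 subunits of the head had a median of -0.05. The c ring genes Atp5g1, Atp5g2 and Atp5g3, which encode the same mature protein, had log2 differences of -0.12, 0.26 and -0.12. Atp5g2 read 1457 in the truncated-Egr3 RNA, against 1214 in the wildtype RNA, with 1331 in RNA275 and 1295 in RNA276.

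Of the stalk and membrane subunits, Atp5o, which links head and stalk, read 1468 in the truncated-Egr3 RNA, against 1234 in the wildtype RNA (0.25), with 1682 in RNA275 and 1502 in RNA276. The lowest differences were those of Atp5pb, the b subunit of the stalk, with 1361, against 1702 (-0.32), of Atp5j, with 1252, against 1437 (-0.20), and of Atp5e, the epsilon subunit of the head, with 424, against 485 (-0.19). Another Atp5pb probe set gave 924 in the truncated-Egr3 RNA, against 985 in the wildtype RNA, a log2 difference of -0.09.

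Over the 4 RNAs, respiratory chain signals were lower in the truncated-Egr3 and wildtype RNAs than in RNA275 and RNA276. Each gene's floored log2 signal was set against its own mean over the 4 RNAs, and the median over the 86 measured genes was -0.15 in the truncated-Egr3 RNA and -0.10 in the wildtype RNA, with 0.15 in RNA275 and 0.08 in RNA276. The same median over all measured genes was between -0.02 and 0.00 in each RNA (0.00 rounds -0.0026). Among bright genes it was -0.02 in the truncated-Egr3 RNA and -0.04 in the wildtype RNA, with 0.00 in RNA275 (0.0039 unrounded) and 0.06 in RNA276. The highest signal was in RNA275 for 45 genes and in RNA276 for 28, and the lowest in the truncated-Egr3 RNA for 40 and in the wildtype RNA for 32. With quantile normalization the 86 genes had medians of -0.11 in the truncated-Egr3 RNA and -0.07 in the wildtype RNA, with 0.15 in RNA275 and 0.03 in RNA276. With equal medians they had -0.18 and -0.20, with 0.16 and 0.20, so the order within each pair of RNAs depends on the scaling. RNA275 and RNA276 belong to no group, so these are values of 4 single RNAs.

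By complex, the medians of complex I ran from -0.19 in the truncated-Egr3 RNA and -0.13 in the wildtype RNA to 0.18 in RNA275, with 0.09 in RNA276. Complex IV had -0.13 in the truncated-Egr3 RNA and -0.07 in the wildtype RNA, with 0.08 in RNA275 and 0.10 in RNA276. Complex V had -0.11 and -0.08 in the same 2 RNAs, with 0.13 in RNA275 and 0.01 in RNA276. Complex III had -0.06 in each of the labelled RNAs, with 0.09 and 0.06. In complex II the highest was RNA276, at 0.21. The level of complex V in RNA276 depended most on the scaling. It was -0.12 with quantile normalization, where the truncated-Egr3 RNA had -0.06 and the wildtype RNA -0.04, and 0.13 with equal medians.

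**Figure D4:**
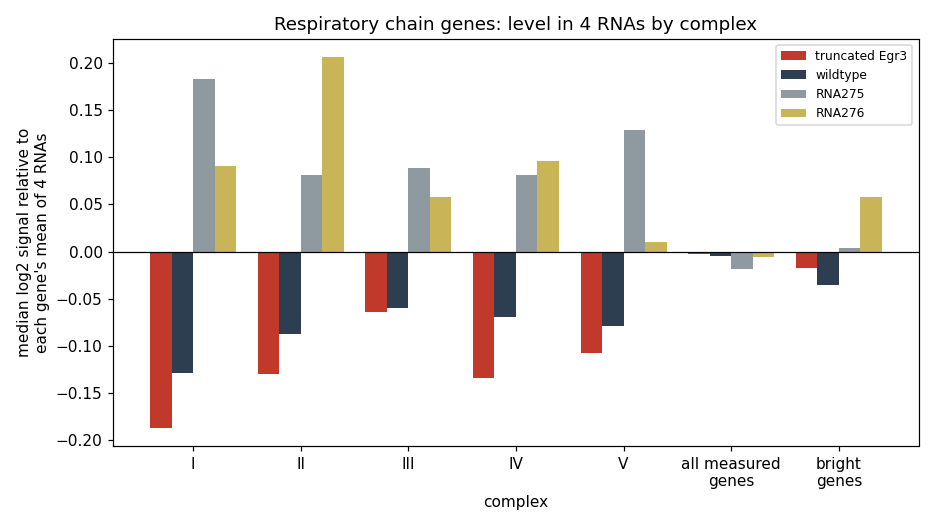
Median over the measured genes of each complex of the log2 signal relative to the gene's mean of the 4 RNAs, for truncated Egr3, wildtype, RNA275 and RNA276, beside all measured genes and bright genes. With signals as deposited, in complexes I to V the 2 labelled RNAs lie below 0 and RNA275 and RNA276 above it, from -0.19 to 0.21.

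The widest ranges over the 4 RNAs after Ndufs8 (1.46 in log2) were those of Ndufaf6 (0.96), Sdhd (0.90), Ndufa7 (0.84), Atp5md (0.83) and Atp5k (0.81). Ndufa7, of the matrix arm of complex I, read 1149 in the truncated-Egr3 RNA, against 986 in the wildtype RNA, with 1662 in RNA275 and 1765 in RNA276. Its other measured probe sets ranged less widely. In the same order, one read 1166 and 1052, with 1410 and 1346, and another 829 and 737, with 996 and 901. A further one read 926 and 633, with 919 and 811, and a dim one 140 and 149, with 141 and 130. Atp5md, a small membrane subunit of complex V, stood out in RNA275 alone, at 719, with 418 in the truncated-Egr3 RNA, 404 in the wildtype RNA and 407 in RNA276. Atp5k, the e subunit, ran the other way, at 1945 in the truncated-Egr3 RNA and 2183 in the wildtype RNA, with 1562 in RNA275 and 1243 in RNA276. Of its other 2 probe sets, one also read higher in the labelled RNAs (1493 in the truncated-Egr3 RNA and 1547 in the wildtype RNA, with 1241 in RNA275 and 1289 in RNA276). The other read highest in RNA275 (531 and 525, with 735 and 511 in the same order). The order of the 4 RNAs was therefore not the same for every subunit of complex V.

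Lists of other mitochondrial genes held none that was 2-fold apart between the labelled RNAs. Of all measured genes 1.66% were, a share at which lists this short would hold few or none. For the signs below, 49.9% of all measured genes were below 0. Of 29 further respiratory chain and assembly genes, 18 were below 0 and the median was -0.06. Sdhaf2, an assembly factor of complex II, read 240 in the truncated-Egr3 RNA, against 345 in the wildtype RNA (-0.52), the ATP synthase inhibitor Atpif1 433, against 337 (0.36), and Cyc1, the cytochrome of complex III, 1482, against 1815 (-0.29). Of 18 genes of the tricarboxylic acid cycle and pyruvate dehydrogenase, 13 were above 0 and the median was 0.10, the highest being Pdha1, of the pyruvate dehydrogenase core, with 1069, against 846 (0.34). Of 14 beta oxidation genes 6 were above 0 and 8 below (median -0.01), from Acaa2 at -0.46 to Echs1 at 0.39. Of 17 carriers, pores and import genes 11 were below 0 (median -0.05), the lowest being the ADP/ATP carrier Slc25a5, with 1521 in the truncated-Egr3 RNA, against 2251 in the wildtype RNA (-0.57).

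Regulators of mitochondrial biogenesis had a median log2 difference of -0.13, with 10 of 15 measured genes below 0, against 49.9% of all measured genes. The coactivator Ppargc1b read 169 in the truncated-Egr3 RNA, against 259 in the wildtype RNA (-0.61), with 259 in RNA275 and 145 in RNA276. Esrra, the estrogen-related receptor alpha, read 77.2, against 114 (-0.56), close to the floor. Gabpa, the Ets factor subunit, read 184 in the truncated-Egr3 RNA, against 136 in the wildtype RNA (0.43), with 144 in RNA275 and 55.8 in RNA276. Ppargc1a was below the floor in both labelled RNAs, and Tfam, the mitochondrial transcription factor, was level, at 192, against 196 (-0.03). The members with NRF1 letters in their promoter had a median log2 difference of 0.07 (16 measured), and those without one of -0.05 (54). With Ets letters the median was -0.11 (19), and without them -0.01 (51). The 5 with Egr letters had one of -0.13, from -0.33 (Ndufaf7) to 0.26 (Atp5g2). These medians are descriptions of 1 pair of RNAs, with no test.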

How the data were processed

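Total RNA of mouse myotubes was measured on oligonucleotide expression arrays, 1 array of each of 2 types for each of 4 RNAs. Groups came from the labels. RNA275 and RNA276 were left unassigned. They entered no comparison between groups, and their values were only set beside those of the labelled RNAs. For every probe set the authors deposited 1 linear intensity. Which software and normalization made it is not stated in the labels or file headers. The trimmed mean (2% off each end) of every array was 150.0, so the scale was left as deposited.

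Probe sets with 1 gene symbol in the platform annotation numbered 20380 on type A and 14661 on type B. Another 691 and 245 had several symbols and were not named, and the remaining 1619 and 7669 were controls or had none. Each gene was read by its probe set with the brightest mean over the 4 arrays, on type A if it is there and on type B if not, for 18193 genes in all. The gene numbers of all 91 genes described here were found in RefSeq's table for GRCm38.p6. A signal floor was set from the truncated-Egr3 and wildtype arrays pooled, at the 50th percentile for type A (67.6) and the 60th for type B (112.6), before taking log2. A gene was measured where at least 1 of these 2 RNAs was above the floor. Differences are truncated Egr3 minus wildtype. With 1 RNA per label no test across replicates could be made, and the number of arrays limits the precision. The procedure was tested on simulated data, with planted changes larger than any of the measured respiratory chain genes. That test therefore does not bear on differences as small as theirs.

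The members and gene lists were chosen with earlier results of these data known. Genes were named by this rule: every member 2-fold apart, the 3 highest and 3 lowest differences of each complex, the complex I core subunits, the tissue isoforms of complex IV, and Sdha to Sdhd, Cycs, Uqcrc1, Uqcrc2, Uqcrfs1, Cox5a, Cox5b, Atp5a1 and Atp5b. From the other lists up to 3 largest and 3 smallest differences were named. Cyc1, Ppargc1a and Tfam, of those lists, were named beyond this rule, with their values known. Members named beyond the rule, to show the range over the 4 RNAs, other probe sets or promoter letters, were chosen after their values were seen. Promoters came from the RefSeq table of the same assembly. Identities of isoform proteins were not analysed here. Figures were drawn with matplotlib 3.10.9. Statistics used statsmodels 0.14.6, scipy 1.17.1, pandas 2.3.3 and numpy 2.4.6 under Python 3.11.15.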

Additional observations from a re-analysis of the deposited data

Results flagged for a closer look

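The brightest Ndufs8 probe set read at least 2-fold above the wildtype RNA in the RNAs that belong to no group, by 1.23 in log2 in RNA275 and 1.46 in RNA276. These RNAs carry no group label, so this describes single RNAs, and the threshold was set after their values were known. The probe set was picked by its mean signal over all RNAs, RNA275 and RNA276 included. Its high values there therefore also led to its choice. None of the 5 other measured Ndufs8 probe sets was 2-fold above the wildtype RNA there. The nearest in brightness read 992 in RNA275 and 725 in RNA276, against 916 in the wildtype RNA. In both labelled RNAs it was above the brightest probe set. It read 832 in the truncated-Egr3 RNA and 916 in the wildtype RNA, against 740 and 511.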

How the results depend on the processing

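No paired analysis was possible because each label has 1 RNA. The alternatives were quantile normalization, equal medians, loess (span 0.3), floors at the 40th and 50th or the 60th and 70th percentiles, no floor (a minimum of 1), thresholds of 1.5-fold and 3-fold, the median over a gene's probe sets, probe sets without a suffix letter, and type A alone. No gene was 2-fold higher under any of them. With no floor 2 genes were 2-fold lower, Cox6b2 and Cox7b2, both below the floor in the labelled RNAs. The median of all measured respiratory chain genes stayed between -0.06 and 0.03 and those of complexes I to V between -0.14 and 0.09. Under equal medians, genes read on type B had a median of 0.17 (0.03 as reported). Of 404 values of the 49 named genes, 393 moved by less than 1 technical SD. Many of these could not move. The floor settings and type A alone leave the value of a type A gene well above the floor as it was. With no floor Cox6b2 had -1.03 and Cox7a1 0.48, both below the floor as reported. Among genes above the floor, the choice of probe set put Ndufs8 at -0.04 with the median over probe sets and -0.17 without suffixed ones, Cycs at -0.27 and -0.39, and Uqcr10 at -0.55 without suffixed ones. It also put Atp5pb at -0.09 without suffixed ones. Atp5g2 had 0.02 with the median over probe sets, where its other type A probe set was below the floor. The cause was not tested. Small differences of genes near the floor are compressed.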

Other observations

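Respiratory chain genes often read higher in both RNAs without a group than in both labelled RNAs. This held for 56 of the 86 measured genes (65.1%), with 28 of 35 in complex I, 9 of 13 in complex IV and 7 of 17 in complex V, and for 35 of their 66 other measured probe sets. It held for 20.2% of all measured genes and 28.3% of bright genes. With quantile normalization the share was 50% for the respiratory chain, 20.8% for all measured genes and 22.6% for bright genes, and with equal medians 75.6%, 28.6% and 38.3%. Myotube markers were mixed. Of the 17, 3 (Des, Mylpf and Tnnt3) read higher in both RNAs without a group than in both labelled RNAs. With signals under the floor set to it, 7 read lower in both, of which Myh7 was close to the floor. By the deposited signals Myh2, also near the floor, read lower in both too. Among the 7, Ttn, the sarcomere spring, read 1627 in the truncated-Egr3 RNA and 1850 in the wildtype RNA, with 704 in RNA275 and 354 in RNA276, and Mb, the oxygen store of muscle, 2112 and 2053, with 1197 and 1221. The pattern was seen in these values and has no replicate check. How the 4 RNAs differ beyond the labels was not tested.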
